A study of Mus musculus with 8 samples.

Results

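BMAL1 is a circadian transcription factor that pairs with CLOCK, or with its relative NPAS2, and binds DNA at the enhancer box (E-box), whose classical form reads CACGTG. The pair drives the Period and Cryptochrome genes, whose proteins feed back on it, and the REV-ERB receptors, which in turn repress the BMAL1 gene. HC11, a cell line from the mammary epithelium of the mouse, takes up secretory features, casein synthesis among them, under prolactin, glucocorticoid and insulin. Here the sites listed for BMAL1 in lactogen-differentiated (DIFF) HC11 cultures are described from 2 peak lists, DIFF1 and DIFF2, each made by chromatin immunoprecipitation and sequencing (ChIP-seq) and each called against its own input DNA. Every peak of both lists was taken, 13683 in DIFF1 and 185417 in DIFF2, which is 199100 of the 211109 peaks of the whole study.

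All cultures came from this line and were first held for 48 h in EGF-free medium (10% calf serum, 5 µg/mL insulin). DIFF cultures then received prolactin (5 µg/mL), dexamethasone (0.1 µM) and insulin (5 µg/mL) for 96 h, whereas the undifferentiated (UNDIFF) cultures did not, and all were fixed with 1% formaldehyde. The UNDIFF lists, called UNDIFF6 (6534 peaks) and UNDIFF8 (5475 peaks) after the numbers in their labels, serve as background only. No expression was measured in these samples, so neither the cell type nor the differentiated state could be checked against marker transcripts. A further limit is that the lists hold no values outside peaks, so a gene without a peak is not shown to be unbound.

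The lists differed in scale before any gene was considered. The tag columns imply an analysed total, after scaling, of 57.5 M tags for DIFF1 and 35.3 M for DIFF2, against 80.4 M and 77.1 M for the UNDIFF lists. Peaks were 214 bp wide in DIFF1 and 336 bp wide in DIFF2, apart from 2 DIFF2 peaks of other widths. DIFF1 peaks covered 2.93 Mb, or 0.111% of the sequenced bases of the genome, and DIFF2 peaks covered 62.3 Mb, or 2.35%. Peaks took in 0.415% of the total in DIFF1 and 17.4% in DIFF2. Thus the list with fewer tags behind it was the longer by far, and its lowest score was 14 where that of DIFF1 was 24. The score is the peak caller's tag measure, and since each list was scaled on its own, scores and tags are ranked within a list. The exception is overlapping pairs, which are ranked by the lower of their DIFF1 and DIFF2 scores.

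The sites that scored highest were not sites of known clock genes. In DIFF1 the highest peak lay in an intron nearest to Pisd-ps2, with 127.6 ChIP tags over 49.5 input tags, a 2.58-fold ratio. The next lay near Ccl28, Gm2619, C130026I21Rik and Rn4.5s, and the folds of these 5 peaks ran from 2.02 to 2.94. In DIFF2 the highest peak held 838503 ChIP tags over 126849 input tags, a 6.61-fold ratio, in intergenic sequence of chromosome 2 whose nearest start site, that of Lrrc4c, was 1199 kb away. The other 4 lay nearest to 4933422A05Rik, Mir101c and, for a pair of peaks, Gm2237, with 17378 to 283086 ChIP tags. These 5 DIFF2 peaks held 21.1% of all ChIP tags in DIFF2 peaks, whereas the 5 highest peaks of DIFF1 held 0.167%. They are alike in sequence, since 33.98% to 58.7% of the 12-letter words of the other 4 are found in the highest one. Their inputs were high as well, at 1612 to 126849 tags, where the median DIFF2 peak had 4.80. The highest peak of each list is shown because it leads its ranking (RefSeq GRCm38, forward strand, as for all sequences here), with each CANNTG, the general E-box pattern read on both strands, in capitals. The DIFF1 sequence has 2 such matches and the central 240 bp of the DIFF2 peak has 0.
DIFF1 highest, chr17:3077805-3078018: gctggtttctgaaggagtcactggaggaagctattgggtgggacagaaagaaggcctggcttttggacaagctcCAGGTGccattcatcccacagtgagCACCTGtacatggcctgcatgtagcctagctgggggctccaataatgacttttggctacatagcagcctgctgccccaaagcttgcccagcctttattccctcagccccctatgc
DIFF2 highest, chr2:98666647-98666886: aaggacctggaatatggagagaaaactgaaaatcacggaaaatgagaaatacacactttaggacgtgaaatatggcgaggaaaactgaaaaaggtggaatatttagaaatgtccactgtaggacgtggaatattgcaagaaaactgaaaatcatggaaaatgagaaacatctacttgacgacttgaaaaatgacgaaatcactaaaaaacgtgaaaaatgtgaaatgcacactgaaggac

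Few sites were listed in both DIFF cultures. Of the 13683 DIFF1 peaks, 776 shared at least 1 bp with a DIFF2 peak, which is 5.67% of DIFF1 (95% Wilson interval 5.30 to 6.07, counting error only) and 0.419% of DIFF2. The same DIFF2 list also held 360 of the UNDIFF6 peaks (5.51%, 4.98 to 6.09) and 479 of the UNDIFF8 peaks (8.75%, 8.03 to 9.53). Hence a DIFF1 peak was found in DIFF2 about as often as an UNDIFF6 peak, with overlapping intervals, and less often than an UNDIFF8 peak. Against the short UNDIFF lists, DIFF1 shared 39 peaks with UNDIFF6 (0.285%) and 50 with UNDIFF8 (0.365%). For comparison, 95 UNDIFF6 peaks (1.45%) overlapped an UNDIFF8 peak.

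At equal numbers of peaks the DIFF lists shared still fewer sites. Among the 200 highest-scoring peaks of each list 0 overlapped, which allows a share of up to 1.88% (Wilson). Among the top 500 there were 3, among the top 1000 there were 5, among the top 2000 there were 10 and among the top 5000 there were 28 (0.560%). At 13683 peaks from each list, the length of DIFF1, 101 overlapped (0.738%, 0.608 to 0.896). UNDIFF6 shared 3, 7, 11 and 14 peaks with DIFF2 at 200, 500, 1000 and 2000 peaks. Each count was higher than that of DIFF1, but the intervals of the shares overlapped at each number. UNDIFF8 shared 17 at 200. At 5000 peaks, which is most of each background list, UNDIFF6 shared 23 with DIFF2, UNDIFF8 shared 82 with DIFF2, and the UNDIFF lists shared 81 with each other. Ranked by score, DIFF1 shared more top peaks with DIFF2 than UNDIFF6 did at no number up to 2000. At 5000 the intervals of these shares overlap as well (0.388 to 0.808% and 0.307 to 0.689%). The UNDIFF lists shared more between them at 5000 (1.31 to 2.01%). When the same 13683 were ranked by fold over input the count was 43 (0.314%), and by p-value over input it was 52 (0.380%). The order of DIFF1 and UNDIFF6 depended on the ranking. At 2000 peaks by fold, DIFF1 shared 1 peak with DIFF2 and UNDIFF6 shared 0, and by p-value they shared 0 and 2.

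Among DIFF1 peaks, overlap varied more with the kind of sequence than with score. A peak was called soft-masked when its centre lay in sequence that the reference genome marks as repetitive. DIFF2 peaks were soft-masked in 86.0%, where 36.4% of genome bases are. Soft-masked peaks of any list therefore had more DIFF2 peaks to meet, and a split by masking does not by itself show shared sites. Among DIFF1 peaks, 14.7% (13.6 to 15.9) of the soft-masked and 2.39% (2.11 to 2.71) of the others overlapped a DIFF2 peak. The background lists split in the same direction, at 14.1% and 3.17% in UNDIFF6 and at 21.9% and 4.06% in UNDIFF8. With soft-masked peaks left out of both lists, 76 of 10038 DIFF1 peaks overlapped (0.757%), beside 0.720% for UNDIFF6 and 0.892% for UNDIFF8. By rank, 6.65% (5.45 to 8.09) of the highest-scoring decile of DIFF1 and 4.68% (3.68 to 5.93) of the lowest decile overlapped DIFF2, and these intervals overlap. For DIFF2 the share ran from 0.777% (0.660 to 0.914) in the highest decile to 0.291% (0.223 to 0.380) in the lowest.

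**Figure D1:**
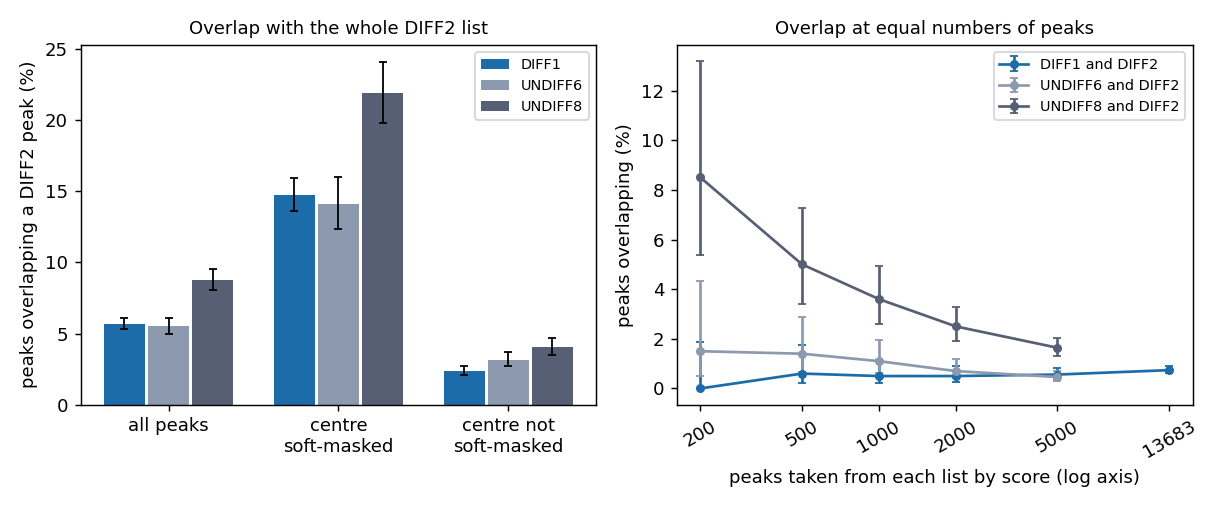
Left, the share of peaks of DIFF1, UNDIFF6 and UNDIFF8 that overlap any DIFF2 peak, for all peaks and by whether the peak centre is soft-masked. Right, the share overlapping when the same number of highest-scoring peaks is taken from each list (log x axis). Bars and points are shares in percent and error bars are 95% Wilson intervals. DIFF1 stands at 5.67% beside 5.51% for UNDIFF6 and 8.75% for UNDIFF8, and soft-masked peaks overlap more often in all 3 lists.

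In the 776 overlapping pairs the measurements of one replicate told little of the other. The median pair shared 160.5 bp, the centres were a median of 114.5 bp apart, and 179 pairs (23.1%) had centres within 50 bp. Across pairs, the fold over input in DIFF1 and in DIFF2 had a Pearson r of 0.0034 on the log2 scale and a Spearman rho of 0.0267, while scores had a rho of 0.192 and input tags a rho of 0.138. These describe 776 sites of a pair of samples, not replicates. DIFF1 peaks in a pair had a median fold of 4.14 and the other DIFF1 peaks 4.31, with the same median of 16.9 ChIP tags and 4.0 input tags. Soft-masked centres made up 69.1% of the paired DIFF1 peaks, against 26.6% of all DIFF1 peaks, and 85.8% of the paired DIFF2 peaks, against 86.0% of all DIFF2 peaks, so that on the DIFF2 side overlap went with score and not with masking. The E-box CACGTG was in both peaks of 8 pairs, and 4 paired DIFF1 peaks also overlapped an UNDIFF peak (0.515%, against 0.651% of the other DIFF1 peaks).

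The 10 best-scoring pairs outside soft-masked centres lay nearest to Nploc4, 6330415B21Rik, Nptx2, Chl1, Wwox, Mapk14, Insr, Tcf21, Ripor3 and AI429214. Nploc4, a cofactor of the p97 unfoldase, had the strongest pair, 17.5 kb downstream of its start site in an intron, with 35.5 ChIP tags over 15.5 input tags in DIFF1 (2.29-fold) and 58.5 over 21.9 in DIFF2 (2.67-fold). Near Nptx2, which encodes a neuronal pentraxin, DIFF1 had 20.2 tags over 3.50 (5.78-fold) and DIFF2 had 36.5 over 8.70 (4.20-fold). In Mapk14, which encodes the p38 alpha kinase, the site was 4.98 kb from the start site, with 16.9 over 5.00 tags in DIFF1 (3.38-fold) and 29.5 over 5.00 in DIFF2 (5.94-fold). At Insr, the insulin receptor gene, DIFF1 had 16.2 over 4 tags (4.06-fold) and DIFF2 had 30 over 4.1 (7.25-fold), and the peaks shared 16 bp. In the pair with the lowest score of the 10, nearest to AI429214, the values were 15.9 over 4.00 (3.98-fold) and 31.5 over 2.50 (12.7-fold). Of these 20 peaks, the DIFF2 peak nearest to AI429214 was in a promoter.

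The stretch that both peaks share is printed for 9 of the 10, since these are the sites with the highest scores in both DIFF lists whose peak centres are not soft-masked. Parts of the peaks are, with 0% to 44.9% of bases soft-masked in the 10 DIFF1 peaks and 23.5% to 83.0% in the 10 DIFF2 peaks. Each CANNTG is in capitals. It occurs in 7 of the 10 stretches, and CACGTG in 0 of them. The 10 stretches differ in length, so no share of genome windows is set beside this count.
6330415B21Rik, chr6:77510805-77510897: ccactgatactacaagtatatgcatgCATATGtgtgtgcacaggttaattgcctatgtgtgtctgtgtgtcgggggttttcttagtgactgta
Nptx2, chr5:144464827-144464971: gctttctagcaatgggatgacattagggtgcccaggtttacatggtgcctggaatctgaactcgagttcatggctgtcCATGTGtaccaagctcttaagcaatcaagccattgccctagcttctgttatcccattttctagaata
Chl1, chr6:103196610-103196809: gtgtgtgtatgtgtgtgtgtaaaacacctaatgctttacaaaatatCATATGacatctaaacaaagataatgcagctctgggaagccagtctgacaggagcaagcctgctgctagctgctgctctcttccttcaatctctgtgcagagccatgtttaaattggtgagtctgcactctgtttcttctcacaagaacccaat
Wwox, chr8:114720335-114720482: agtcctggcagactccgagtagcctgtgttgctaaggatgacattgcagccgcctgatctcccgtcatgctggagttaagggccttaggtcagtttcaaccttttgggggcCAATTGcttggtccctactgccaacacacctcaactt
Mapk14, chr17:28697439-28697651: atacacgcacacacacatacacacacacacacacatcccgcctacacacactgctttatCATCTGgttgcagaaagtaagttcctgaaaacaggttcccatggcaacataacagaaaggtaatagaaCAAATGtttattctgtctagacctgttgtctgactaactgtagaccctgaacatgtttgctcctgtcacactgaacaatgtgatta
Insr, chr8:3313127-3313142: ctatctttctttccat
Tcf21, chr10:22998619-22998645: cttggtgttaagaaacttaaagccagc
Ripor3, chr2:168040976-168041097: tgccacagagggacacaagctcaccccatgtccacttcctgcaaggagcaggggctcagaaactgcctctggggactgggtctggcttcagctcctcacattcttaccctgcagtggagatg
AI429214, chr8:36992480-36992665: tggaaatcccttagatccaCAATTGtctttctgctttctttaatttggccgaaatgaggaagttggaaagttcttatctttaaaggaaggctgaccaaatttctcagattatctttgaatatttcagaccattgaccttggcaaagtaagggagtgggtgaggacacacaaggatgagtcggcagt

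Tags per peak were low in both cultures. In DIFF1 a peak held a median of 16.9 ChIP tags, with 5% of peaks under 15.2 and 5% over 21.5, and a median of 4.0 input tags. In DIFF2 the median was 24 ChIP tags, with 5% under 17 and 5% over 40.5, and 4.80 input tags. The input tags at peaks were close to the mean of the genome, which was 4.65 tags per window of peak width for DIFF1 and 4.48 for DIFF2. Only 1 DIFF1 peak held over 100 ChIP tags, against 91 DIFF2 peaks. The median fold over input was 4.31 in DIFF1 and 5.15 in DIFF2, beside 3.41 in UNDIFF6 and 4.14 in UNDIFF8. The DIFF mean was 4.73 ± 0.594 (SD, n = 2) and the UNDIFF mean 3.77 ± 0.520 (SD, n = 2). Both DIFF values were above both UNDIFF values, which gives p = 0.333 in an exact permutation test (two-sided) and 0.667 after Benjamini-Hochberg adjustment over 4 such tests. With 2 cultures against 2, 0.333 is the smallest p this test can give.

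Signal over the surrounding sequence set DIFF2 apart from the other lists. The fold over local tags had a median of 3.01 in DIFF1 and 5.06 in DIFF2, against 3.12 and 3.01 in the UNDIFF lists. The focus ratio, the fraction of tags placed as a single centred site would place them, was 0.694 in DIFF1 and 0.772 in DIFF2, against 0.697 and 0.689. The clonal fold is the caller's ratio based on the number of unique tag positions expected in a peak. Its median was 1.05 in DIFF1 and 1.24 in DIFF2, against 0.97 and 0.95. It was lowest in DIFF2, at 0.01, in the highest-scoring peak with its 838503 ChIP tags. It was above 1.5 in 0.0585% of DIFF1 peaks and in 8.37% of DIFF2 peaks. DIFF1 resembled the UNDIFF lists in fold over local tags and in focus ratio, while its median clonal fold lay above theirs. The DIFF2 medians lay above those of all other lists in these 3 measures.

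**Figure D2:**
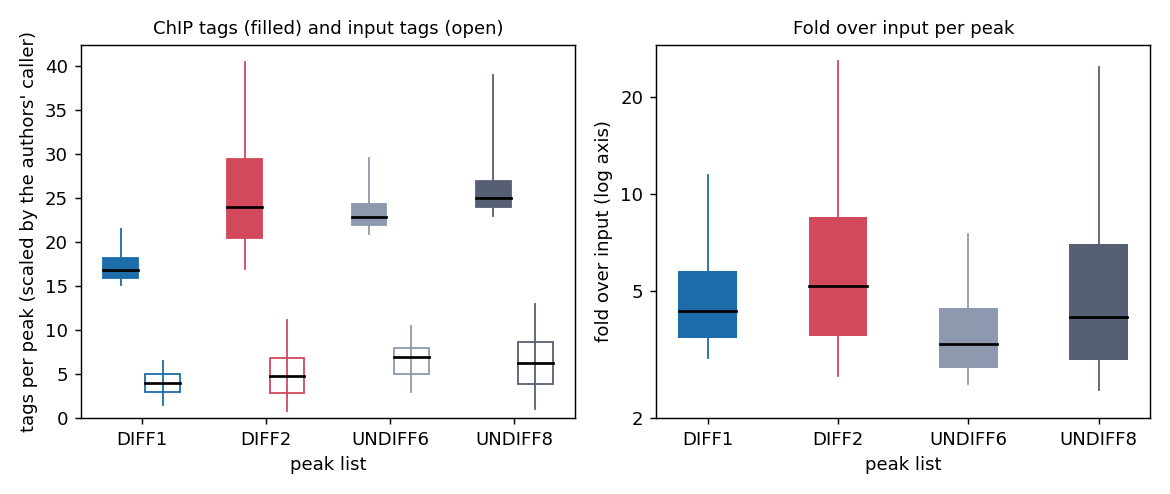
Left, ChIP tags (filled boxes) and input tags (open boxes) per peak in the 4 lists, scaled within each list by the authors' caller. Right, fold of ChIP over input tags on a log axis. Boxes span the quartiles, black lines are medians and thin lines run from the 5th to the 95th percentile over peaks. Median folds are 4.31 in DIFF1 and 5.15 in DIFF2.

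High ratios went with low inputs rather than with high ChIP tags. Fold is ChIP tags divided by input tags, so grouping peaks by input largely fixes this pattern, and it is given as a description. In DIFF1, the 1068 peaks with under 2 input tags had a median fold of 15.2 with 16.2 ChIP tags, whereas the 7320 peaks with 4 to 8 input tags had a median fold of 3.68 with 17.2 ChIP tags. In DIFF2, the 27370 peaks with under 2 input tags had a median fold of 19.3 with 21.5 ChIP tags, and the 29759 peaks with 8 to 16 input tags had a median fold of 3.02 with 30.5 ChIP tags. A ratio of at least 10 was reached by 1039 DIFF1 peaks (7.59%) and 35992 DIFF2 peaks (19.4%). Fold and ChIP tags therefore rank the peaks of a list differently, and below, both are given.

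The sequence under the peaks differed strongly between the DIFF cultures. Peak centres were soft-masked in 26.6% (25.9 to 27.4) of DIFF1 and 86.0% (85.9 to 86.2) of DIFF2, where 36.4% of genome bases are. UNDIFF6 and UNDIFF8 had 21.4% and 26.3%. The DIFF mean of 56.3% ± 42.0 (SD, n = 2) exceeded the UNDIFF mean of 23.8% ± 3.47 (SD, n = 2) with p = 0.333 by the exact permutation test (two-sided, adjusted 0.667), and the difference of 32.5 points fell to 2.79 points without DIFF replicate 2. In DIFF1, 30.001% of peaks held no soft-masked base, and in DIFF2 0.496% did. DIFF1 thus lay outside marked repeats more often than genome bases do, and DIFF2 lay within them. In DIFF2 the soft-masked share went with the score, from 92.5% in the highest decile to 78.4% in the lowest, while in DIFF1 the deciles ranged from 24.6% to 28.3%. Soft-masked and other peaks of DIFF1 had the same median of 16.9 ChIP tags. In DIFF2 soft-masked peaks had 24.5 ChIP tags and a 5.25-fold ratio, and the others 22.5 tags and a 4.6-fold ratio.

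A small set of words accounted for most of the DIFF2 list. Words of 16 bases were counted on both strands, and the word in most peaks was taken, then the word in most of the remaining peaks, and so on for 8 steps. In DIFF2 the 8 words were found in 62.1% of peaks, whereas 8 words chosen in DIFF1 the same way were found in 4.82% of its peaks. Since the words were chosen for their frequency in the list, their shares are a description. The first, CACACACACACACACA, was in 23.6% of DIFF2 peaks, 1.07% of DIFF1 peaks and 3.77% of all 336 bp windows of the genome. The second, AGGCCAGCCTGGTCTA, was in 12.8%, 0.519% and 1.26%. The third, TACTGGTTAGTTCATA, was in 8.22%, 0.541% and 0.868%, and the fourth, AGTGCTGGGATTAAAG, was in 12.3%, 0.482% and 1.19%. In the 214 bp windows that fit DIFF1 these 4 words occur in 2.45%, 0.783%, 0.538% and 0.739%, so DIFF1 peaks held the first, the second and the fourth less often than the genome does, and the third about as often. The fifth DIFF2 word, AAGTGGATGCTCACAG, was also the second word of DIFF1, in 7.98% of DIFF2 and 1.05% of DIFF1 peaks, against 0.732% and 0.454% of windows. Of the 8 words, 6 had median folds of 4.61 to 4.83 over their DIFF2 peaks, below the 5.15 of the list, while the sixth, GAGAGAGAGAGAGAGA, had 6.77 and the seventh, TACAACCACTCTGGAA, had 6.44.

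The word is shown in its surroundings in 120 bp of the highest-scoring DIFF2 peak that was chosen for each of the 4 words just described, in capitals on the strand printed, so the third appears as its reverse complement. These peaks had 178, 509, 141 and 454 ChIP tags over 59.6, 215, 54.8 and 87.7 input tags, in that order, and lay nearest to Gm2619, Pisd-ps1, 6820431F20Rik and Sfi1. The repeat families these words belong to were not looked up.
DIFF2 word 1, chr1:85323878-85323997: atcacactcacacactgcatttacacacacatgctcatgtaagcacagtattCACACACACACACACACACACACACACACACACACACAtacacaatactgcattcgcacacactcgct
DIFF2 word 2, chr11:3138730-3138849: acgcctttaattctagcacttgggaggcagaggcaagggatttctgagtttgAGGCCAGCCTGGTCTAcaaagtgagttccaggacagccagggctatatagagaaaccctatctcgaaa
DIFF2 word 3, chr8:20098375-20098494: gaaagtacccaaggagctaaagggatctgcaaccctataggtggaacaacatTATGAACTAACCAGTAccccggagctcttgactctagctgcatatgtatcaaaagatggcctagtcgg
DIFF2 word 4, chr11:3163508-3163627: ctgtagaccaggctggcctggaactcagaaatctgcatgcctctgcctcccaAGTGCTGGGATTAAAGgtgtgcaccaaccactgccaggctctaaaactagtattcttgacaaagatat

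**Figure D3:**
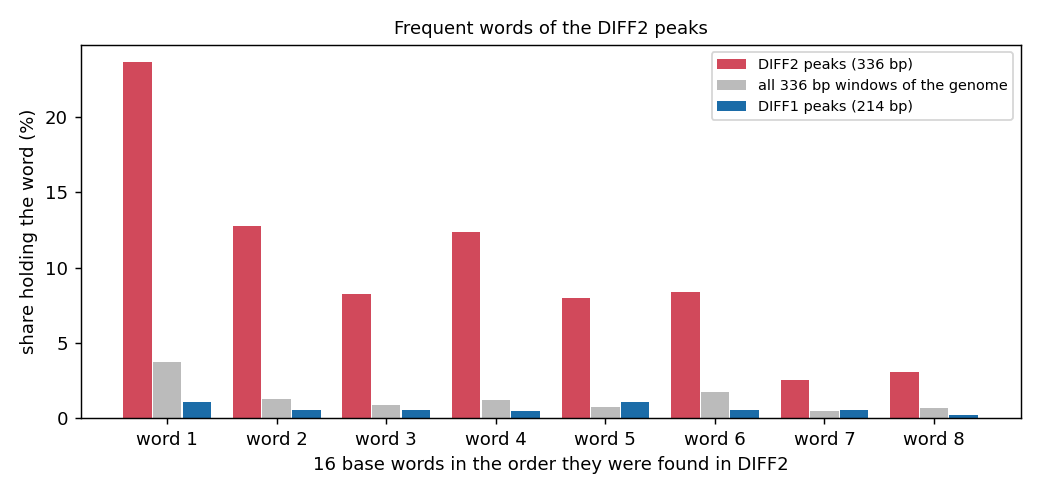
Share (%) of DIFF2 peaks, of all 336 bp windows of the genome and of DIFF1 peaks that hold each of the 8 words of 16 bases, in the order in which they were found in DIFF2. The first word is in 23.6% of DIFF2 peaks, 3.77% of windows and 1.07% of DIFF1 peaks, which are 214 bp wide.

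The E-box served as a check of the precipitated factor. CACGTG was in 272 DIFF1 peaks, or 1.99% (1.77 to 2.24), where 2.05% of all 214 bp windows hold it. It was in 4904 DIFF2 peaks, or 2.64% (2.57 to 2.72), where 3.22% of 336 bp windows do. Neither list thus held the motif more often than windows of its width, and the DIFF2 interval lies below the share of windows. The highest-scoring 500 peaks had it in 2.2% (1.23 to 3.896) of DIFF1 and 3.6% (2.29 to 5.62) of DIFF2. Outside soft-masked centres the shares were 2.08% (1.82 to 2.38) in DIFF1 and 4.20% (3.96 to 4.45) in DIFF2, and within them 1.73% and 2.39%. DIFF2 peaks outside soft-masked centres were the only one of these 4 groups whose interval lay above the share of windows, which were counted over repeats and other sequence together. The general CANNTG was in 72.4% of DIFF1 peaks (68.04% of windows) and 86.2% of DIFF2 peaks (83.3% of windows), and UNDIFF lists exceeded their windows in the same way, at 69.9% over 64.4% and 75.1% over 70.4%. Between states, CACGTG averaged 2.32% ± 0.465 in DIFF and 1.79% ± 0.460 in UNDIFF (SD, n = 2 each), with p = 0.667 by the exact permutation test (two-sided, adjusted 0.889). Over the central 150 bp of every peak, which removes the difference in width, DIFF1 had 1.36%, DIFF2 had 1.37%, and the difference between states was -0.0079 points. DIFF1 peaks had a median fold of 4.31 with the motif and 4.28 without, and DIFF2 peaks 4.27 with it and 5.18 without.

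By position, most DIFF peaks were intergenic or intronic, in shares near those of the genome. Intergenic sequence took 58.6% of DIFF1 and 62.5% of DIFF2 peaks, where 59.2% of genome bases are intergenic, and introns took 37.3% and 35.4%, where 36.1% are intronic. Promoters, which reach 1000 bp upstream and 100 bp downstream from a start, held 106 DIFF1 peaks (0.775%, 0.641 to 0.936) and 1349 DIFF2 peaks (0.728%, 0.690 to 0.767), where 1.19% of bases are promoter. Both DIFF shares were therefore below that of the genome. The DIFF mean of 0.751% ± 0.0333 and the UNDIFF mean of 0.663% ± 0.318 (SD, n = 2 each) gave p = 1 by the exact permutation test (two-sided), the UNDIFF values of 0.888% and 0.438% lying on either side, and the difference turned negative, to -0.137 points, without UNDIFF replicate 8. Coding exons set the DIFF lists apart, with 1.19% of DIFF1 peaks, close to the 1.26% of bases, and 0.113% of DIFF2 peaks. In DIFF2, promoter peaks were soft-masked in 74.1%, in DIFF1 in 18.9%. The median distance to the nearest start site was 56.1 kb in DIFF1 and 54.5 kb in DIFF2, and 63.6% and 62.9% of peaks were within 100 kb of one.

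Along the genome, the DIFF lists shared the chromosomes on which peaks were dense. DIFF1 had 12.2 peaks per Mb of sequenced bases on chromosome 8, 10.7 on chromosome 6, 10.4 on chromosome 15 and 8.70 on chromosome 1, and 1.41 on chromosome 18. DIFF2 had 103 on chromosome 15, 99.4 on chromosome 6, 93.9 on chromosome 1 and 92.3 on chromosome 8, and 49.2 on chromosome 18. Over the 19 autosomes the densities of DIFF1 and DIFF2 had a Spearman rho of 0.935, as a description of chromosomes that share a genome and a cell line. Input tags at peaks went with density, with a rho of 0.810 in DIFF1, where the median ran from 3.00 tags on chromosome 18 to 4.50 on chromosome 15, and of 0.853 in DIFF2, where it ran from 3.70 to 5.60 on autosomes. The part of the input in this pattern was not tested. Both UNDIFF lists had their highest densities on chromosomes 8 and 15 as well, from 6.71 to 7.49 per Mb. Together chromosomes 1, 6, 8 and 15 held 42.5% of DIFF1 and 29.4% of DIFF2 peaks.

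Peaks were given the gene whose start site lay closest to their centre. Of 21000 protein coding genes, 24% were nearest to at least 1 DIFF1 peak (5033 genes), 81.6% to a DIFF2 peak (17145 genes) and 23.1% to peaks of both (4853 genes, which are 96.4% of the DIFF1 genes and 28.3% of the DIFF2 genes). A DIFF1 gene was thus nearly always a DIFF2 gene too. A promoter peak was listed for 0.371% of these genes in DIFF1 (78 genes) and for 5.34% in DIFF2 (1121 genes). Whether a gene had a peak went with how much sequence lay nearest to its start sites. In the decile of genes with the least such sequence, a median of 7.13 kb, 3.14% had a DIFF1 peak and 32.5% a DIFF2 peak. In the decile with the most, a median of 347 kb, the shares were 66.8% and 96.3%. Over the 21000 genes, which are not replicates, the number of peaks and this length had a rho of 0.439 in DIFF1 and 0.776 in DIFF2. Per Mb of sequenced bases the lists had 5.17 and 70.0 peaks, and the gene groups below are given on that scale too.

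**Figure D4:**
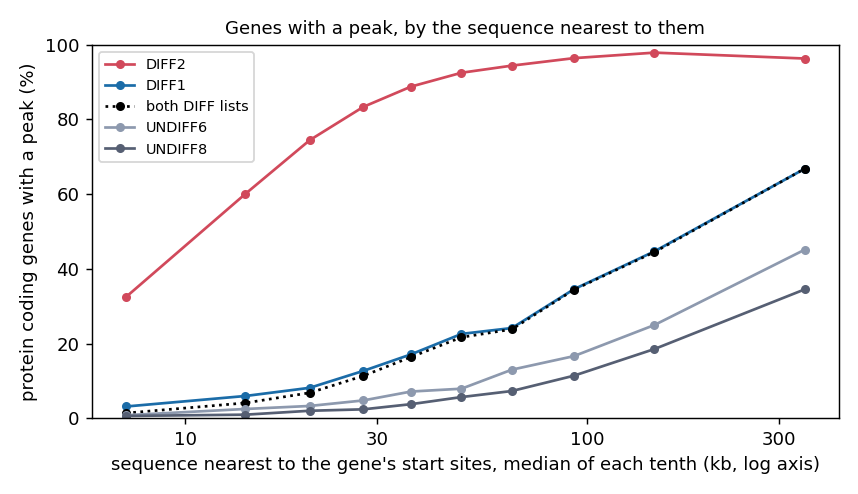
Share (%) of protein coding genes nearest to at least 1 peak of each list, against the length of sequence nearest to a gene's start sites (kb, log axis), in deciles of 2100 genes. Lines join the deciles. DIFF1 runs from 3.14% to 66.8%, DIFF2 from 32.5% to 96.3%, and the genes with peaks in both lists follow DIFF1.

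Clock genes come first because they are the classical genes of BMAL1. Among the 4 core activators, Clock and Npas2 had a DIFF1 peak (6.10 per Mb over the group) and all 4 a DIFF2 peak (73.2 per Mb). Clock, the partner of BMAL1, had 1 DIFF1 peak 31.7 kb into the gene with 19.2 over 5.50 tags (3.49-fold) and 5 DIFF2 peaks of 4.67- to 17.5-fold. Npas2, which can stand in for CLOCK, had 1 DIFF1 peak with 16.9 over 2.00 tags (8.45-fold) and 10 DIFF2 peaks of 3.08- to 9.66-fold. The gene of BMAL1 itself, Arntl, had 0 DIFF1 and 8 DIFF2 peaks, of 2.81- to 4.83-fold. The 9 repressors and their regulators had 0 DIFF1 peaks and 45 DIFF2 peaks (92.3 per Mb). Per1 had 1 DIFF2 peak at -4.80 kb with 34 over 5 tags (6.85-fold), Per2 had 3 and Cry1 had 12. None of the 9 had a promoter peak in either DIFF list, and of their 45 DIFF2 peaks 1, at the casein kinase gene Csnk1d, held CACGTG.

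The nuclear receptors of the second clock loop had 6 DIFF1 peaks at 3 of 5 genes (4.62 per Mb) and 83 DIFF2 peaks at all 5 (63.9 per Mb). Nr1d1, which encodes REV-ERB alpha, had 1 DIFF1 peak at -8.85 kb with 16.9 over 4.50 tags (3.76-fold). Its 1 DIFF2 peak was at 14.4 kb with 19.5 over 5.80 tags (3.37-fold), in sequence classed as coding exon from any transcript. Rora had 1 DIFF1 peak with 15.2 over 1.00 tags (15.2-fold) and Rorb had 4, of 3.37- to 6.23-fold. Among 8 output genes, Tef, Nfil3 and Bhlhe41 had 1 DIFF1 peak each, of 3.73- to 4.35-fold, and 6 genes had a DIFF2 peak. Dbp, a textbook gene of BMAL1, and Bhlhe40, an E-box repressor, had 0 peaks in both. These counts stand beside the 24% of all genes with a DIFF1 peak and the 81.6% with a DIFF2 peak, and the 9 repressors together have 0.487 Mb of nearest sequence.

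The only peak classed as promoter at a clock gene was at Npas2 in DIFF2, centred at -0.531 kb with 37.5 over 11 tags (3.42-fold). Arntl had a DIFF2 peak centred 0.343 kb from a start site, outside the promoter class.

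Genes of the lactogenic hormones were counted next, since the DIFF cultures received prolactin, dexamethasone and insulin. Of 12 prolactin signalling genes, 4 had a DIFF1 peak (9.58 per Mb) and 11 a DIFF2 peak (88.2 per Mb), and both densities were above those of the lists. These counts, and those of every group below, stand beside 24% and 81.6% of all protein coding genes. Prlr, the prolactin receptor gene, had 8 DIFF1 peaks, of 2.87- to 5.21-fold with at most 22.9 over 7.00 tags, and 38 DIFF2 peaks, of 2.18- to 67.7-fold. Ghr, the growth hormone receptor gene, had 3 DIFF1 peaks of 2.92- to 3.26-fold and 34 DIFF2 peaks. No DIFF1 and DIFF2 peaks overlapped at Prlr or at Ghr, where 5.67% of all DIFF1 peaks overlapped a DIFF2 peak. Prlr and Ghr both lie on chromosome 15, one of the dense chromosomes, and gave 11 of the 14 DIFF1 peaks of the group. Jak2, the kinase of these receptors, had 2 DIFF1 peaks, of 4.18- and 16.9-fold, and 11 DIFF2 peaks, with 1 overlapping pair. Stat5a and Stat5b, which carry the prolactin signal, had 0 DIFF1 peaks and 3 and 7 DIFF2 peaks, and Elf5, an alveolar transcription factor, had 0 in both. Promoter peaks occurred in DIFF2 only, at Socs2, a feedback inhibitor (19 over 6.2 tags, 3.06-fold), and at Ghr (31 over 7.4 tags, 4.16-fold).

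Per Mb, DIFF1 and DIFF2 peaks were sparser at genes of the other hormones than at those of prolactin signalling. Prlr and Ghr, on chromosome 15, held 8 and 3 of the 14 DIFF1 peaks of the prolactin signalling genes. DIFF1 had 10.4 peaks per Mb over that whole chromosome, and its part in this contrast was not tested. Of 12 glucocorticoid response genes, Nr3c1, Sgk1 and Dusp1 had 1 DIFF1 peak each (2.03 per Mb) and all 12 a DIFF2 peak (56.0 per Mb), both densities below those of the lists. At Nr3c1, the receptor of dexamethasone, the DIFF1 peak had 15.6 over 2.50 tags (6.23-fold), and at Dusp1, a MAP kinase phosphatase, 23.2 over 3.50 (6.63-fold). Promoter peaks were in DIFF2, at Hsd11b1, which regenerates active glucocorticoid (44.5 over 6.6 tags, 6.72-fold), and at Sgk1, a kinase (32 over 7.4, 4.30-fold). Of 13 insulin and IGF genes, Insr (3 peaks), Grb10 (2), Igf1r, Igf2r and Irs1 (1 each) had DIFF1 peaks (3.63 per Mb), of 3.31- to 6.63-fold, and 12 had a DIFF2 peak (63.9 per Mb). None of these 13 had a promoter peak, and Akt1 had no peak in either list. Igf1r had a DIFF2 peak centred 0.373 kb from a start site, outside the promoter class.

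Socs3 and Ppara had the DIFF1 peaks with CACGTG in the prolactin and milk fat groups. At Socs3, a feedback inhibitor of cytokine signalling, the DIFF1 peak was centred at -1.10 kb with 16.6 over 3.50 tags (4.73-fold). At Ppara, a nuclear receptor of lipid use, it lay in an intron 21.6 kb from the start site with 19.2 over 2.50 tags (7.69-fold). Neither overlapped a CACGTG peak in DIFF2, where the 10 peaks of Socs3 and the 6 of Ppara held 0. These sequences were picked after their values were seen, and CACGTG is in capitals.
Socs3, DIFF1, chr11:117970359-117970572: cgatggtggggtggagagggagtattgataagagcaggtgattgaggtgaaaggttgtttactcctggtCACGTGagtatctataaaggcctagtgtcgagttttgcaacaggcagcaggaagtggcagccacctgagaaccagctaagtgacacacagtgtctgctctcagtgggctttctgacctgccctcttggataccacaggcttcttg
Ppara, DIFF1, chr15:85757303-85757516: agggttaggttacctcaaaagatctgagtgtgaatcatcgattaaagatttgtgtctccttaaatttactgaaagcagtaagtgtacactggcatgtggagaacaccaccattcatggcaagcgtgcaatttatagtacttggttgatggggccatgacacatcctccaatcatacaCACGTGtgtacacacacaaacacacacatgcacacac

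Of 14 milk protein genes, Xdh and B4galt1 had 2 DIFF1 peaks each and 13 genes had a DIFF2 peak, beside 24% and 81.6% of all genes. The group has 0.666 Mb of nearest sequence. Its 6.01 DIFF1 peaks per Mb, beside 5.17 for the list, rest on 4 peaks at 2 genes and are not read as an excess. Its 93.1 DIFF2 peaks per Mb, from 62 peaks, were above the 70.0 of the list. The DIFF1 peaks of Xdh, a milk fat globule enzyme, had 4.22- and 7.95-fold ratios, and those of B4galt1, a subunit of lactose synthase, 3.61- and 6.36-fold. The 5 caseins had 0 DIFF1 peaks and 2 to 8 DIFF2 peaks each. At Csn2, beta-casein, the DIFF2 peak with the highest score had 25.0 over 3.70 tags (6.71-fold) at -23.9 kb, and at Csn1s1 it had 37.0 over 3.50 (10.5-fold) at 2.43 kb. Muc1 had no peak, and no gene of the group had a promoter peak.

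Milk fat genes had a DIFF1 peak in 11 of the 23 that matched the annotation (5.53 per Mb) and a DIFF2 peak in 22 (67.1 per Mb), so that their larger count came with a density near that of the lists. Nearest to Fasn, fatty acid synthase, was the highest DIFF1 peak of the hormone and milk groups, with 36.8 over 7.50 tags (4.90-fold). It lay at -22.3 kb, upstream of the start site, in sequence classed as intron from any transcript. The DIFF2 peak of Fasn with the highest score had 95 over 38.1 tags (2.49-fold) at -42.6 kb. No DIFF1 and DIFF2 peaks of Fasn overlapped. Lpl, lipoprotein lipase, had 4 DIFF1 peaks of 3.42- to 4.72-fold, Ppargc1a, a coactivator, had 6 of 3.81- to 6.53-fold, and Pparg had 2. Srebf2, Scd2, Insig2, Vldlr, Gpam, Plin5 and Ppara had 1 each. Plin5, a lipid droplet protein, had a peak close to its start site in both lists, in DIFF1 at 1.48 kb with 16.6 over 4.50 tags (3.68-fold) and in DIFF2 in the promoter at -0.315 kb with 24.5 over 7.70 (3.20-fold). Scd1, Acaca, Srebf1, Dgat1 and Cd36 had DIFF2 peaks only.

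Groups of other kinds give the scale of these counts. Of 16 mammary lineage genes, Foxa1, Esr1, Pgr, Trp63 and Kit had DIFF1 peaks (3.57 per Mb) and 14 had DIFF2 peaks (67.9 per Mb), with 0 DIFF1 peaks at the keratins Krt5, Krt14, Krt8 and Krt18. Of 14 neuronal and muscle genes, which mammary epithelium is not known for, 6 had a DIFF1 peak (3.67 per Mb) and 12 a DIFF2 peak (57.7 per Mb), among them the 1 DIFF1 promoter peak of all groups, at Map2, a dendrite protein (19.9 over 6.50 tags, 3.06-fold). Of 16 very long genes, 13 had a DIFF1 peak (8.01 per Mb) and 16 a DIFF2 peak (89.5 per Mb). A group of 12 genes taken from loci with shared sites in an earlier reading of these data had peaks in both lists throughout, which its choice fixes.

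**Figure D5:**
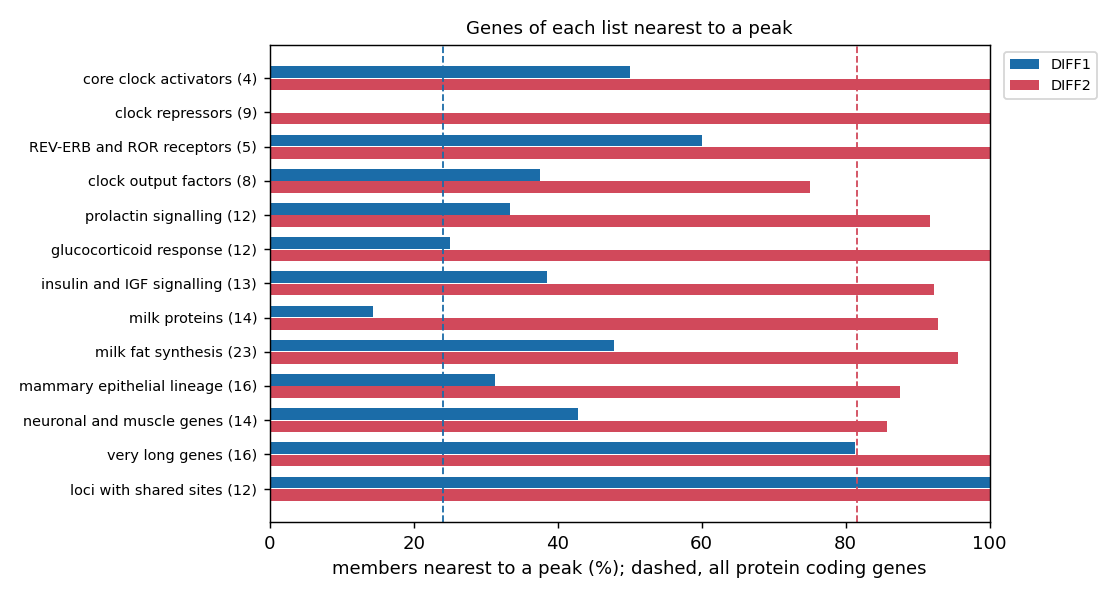
Share (%) of the members of each gene group, with their number in brackets, that are nearest to at least 1 DIFF1 or DIFF2 peak. Dashed lines mark the same share over all protein coding genes, 24% for DIFF1 and 81.6% for DIFF2. Clock repressors have 0 of 9 in DIFF1 and very long genes 13 of 16. The group of loci with shared sites was chosen for its peaks.

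The genes with most DIFF1 peaks were large genes, most of them of cell adhesion or neuronal signalling. Among them were Cntnap2 with 40, Csmd3 with 27, Cdh18 and Cdh9 with 24 each, Cdh6 with 22, Tenm3 with 21, and Cdh11, Cdh12 and Grm7 with 20 each. These genes all lie on chromosomes 6, 8 and 15, and each has 1.02 to 2.78 Mb of sequence nearest to its start sites. Their DIFF1 densities ran from 9.24 per Mb (Cdh9) to 19.5 per Mb (Cdh12), above the 5.17 of the whole list, and DIFF2 densities from 97.4 (Tenm3) to 143 (Cdh9). The choice of genes by number of DIFF1 peaks favours high DIFF1 densities, both beside the list and beside their chromosomes. Chromosomes 6, 8 and 15 as a whole had 10.7, 12.2 and 10.4 DIFF1 peaks per Mb. Cdh9 and Cdh11 (10.2 per Mb) lay below their own chromosomes in DIFF1, and the others named here lay above theirs. Cntnap2, a neurexin relative, had 306 DIFF2 peaks, and its DIFF1 peaks ran from 2.85- to 11.3-fold with a median of 3.98. Their peaks in the UNDIFF lists were also many, 21 in each for Cntnap2 and 19 and 26 for Csmd3. Of the 40 Cntnap2 peaks in DIFF1, 4 overlapped a DIFF2 peak, and 0 of the 24 at Cdh9 and of the 20 at Cdh12 did.

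Both DIFF lists had a promoter peak at 4 protein coding genes, out of 78 with one in DIFF1, where 5.34% of all genes had one in DIFF2. At Cabp2 alone did the peaks overlap, and at Kctd6, S100a16 and Sp110 they were separate sites. Cabp2 had 17.9 over 5.50 tags in DIFF1 (3.25-fold) and 22.5 over 0.600 in DIFF2 (36.2-fold). Kctd6 had 16.2 over 3.00 (5.41-fold) and 22.5 over 7.90 (2.86-fold). S100a16, a calcium-binding protein gene, had 17.9 over 4.00 (4.47-fold) and 29.0 over 5.60 (5.19-fold). Sp110, a nuclear body protein gene, had 30.5 over 12.5 (2.44-fold) and 54.5 over 26.1 (2.09-fold). None of the 8 peaks held CACGTG. Among all 106 DIFF1 promoter peaks 6 held it (5.66%), nearest to Unc13b, A630001O12Rik, Tmem144, Gm41230, Gzmb and Crx, and among the 1349 DIFF2 promoter peaks 42 did (3.11%). No share of promoter windows was counted to set beside these, so they are not read as an excess. Of the 6, the highest was that of Unc13b, a synaptic vesicle priming gene, with 18.9 over 4 tags (4.72-fold) at -307 bp.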

How the data were processed

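BMAL1 ChIP and input DNA were sequenced from 2 DIFF and 2 UNDIFF cultures. Quality control by the authors used FastQC 0.11.7 and the Fastx toolkit, reads were mapped to GRCm38 (mm10) by Bowtie2 2.2.9, and peaks were called sample by sample in HOMER 4.10 (findPeaks), with minimum folds of 2 against input and against the surroundings, a clonal fold limit of 2 and an FDR under 0.01. For 1 of the DIFF pairs of ChIP and input, not named in the sources used here, they used 1 portion of a very large set of reads. The deposited lists give tag signal in ChIP and input (scaled down to the input total in DIFF1 and UNDIFF6, input scaled to ChIP in DIFF2 and UNDIFF8), a normalized signal per 10 M tags, the focus ratio as a fraction, a score, fold ratios over input, local tags and clonal tags, and an unadjusted p-value. No list gives tags outside peaks, so depth was taken from the ratio of tags to normalized tags, and the inputs have no list of their own.

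Peak centres were assigned to the nearest start site of 45756 curated RefSeq transcripts (annotation release 108.20200622, GRCm38), placed in position classes (promoter from 1000 bp upstream to 100 bp downstream, transcription end from 100 bp upstream to 1000 bp downstream), and called soft-masked from the reference sequence. Position classes count any curated transcript, so an intron or exon need not belong to the nearest gene. Sequences are from the RefSeq GRCm38 genome, 5′ to 3′ on the forward strand, with listed starts taken as 1-based. CACGTG reads the same on both strands and is included in CANNTG. Sequence nearest to a gene counts bases other than N up to the midpoint to the next gene's start site. Overlap needed 1 bp. The test between states was the exact permutation test over cultures (two-sided, threshold 0.05), adjusted over 4 tests. Wilson intervals at 95% cover counting error only. The labels do not state whether cultures were separate passages, so spreads and p-values describe these samples. Alternatives tried were other overlap rules, ranks, promoter windows, fold minimums and leaving out each culture. The overlap and assignment steps were tested on simulated data.

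Members, gene lists (159 genes in 13 lists, 158 annotated) and tests were chosen with earlier results of these data known. Named were list genes with a DIFF1 or a DIFF promoter peak, the 10 genes with most DIFF1 peaks, the 10 best pairs outside soft-masked centres and the 5 highest peaks of each list. A few items that this rule takes in are not reported here. Other genes named, among them list genes given without a peak or with DIFF2 peaks only, and promoter genes of both lists, were chosen after their values were seen. Software was scipy 1.17.1, pandas 2.3.3 and numpy 2.4.6 under Python 3.11.15, with matplotlib 3.10.9 for plots.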

Additional observations from a re-analysis of the deposited data

How the results depend on the processing

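The share of DIFF1 peaks overlapping DIFF2, 5.67%, was 3.8% when 50% of the shorter peak had to be shared, 3.40% with peaks of at least 4-fold in both lists, 0.757% outside soft-masked centres and, in an alternative chosen after seeing the data, 4.23% with both lists trimmed to the width of UNDIFF6 peaks. At equal numbers, 0.738% became 0.314% ranked by fold, 0.380% ranked by p-value and 0.269% for the 10038 highest-scoring peaks outside soft-masked centres, the last chosen after seeing the data. The causes were not tested, beyond the narrower peaks and stricter rules themselves. The difference between states in the share with CACGTG, 0.530 points, reversed to -0.0079 in the central 150 bp. Without each culture in turn, the difference in median fold ranged from 0.538 to 1.38, in promoter share from -0.137 to 0.313, in soft-masked share from 2.79 to 62.2 and in CACGTG share from 0.201 to 0.858 points. Genes nearest to peaks of both DIFF lists, 4853, were 4389 within 100 kb and 3327 with peaks of at least 4-fold. No comparison of 2 against 2 cultures could pass the threshold under any setting. No paired analysis was possible because the DIFF and UNDIFF ChIP samples share no replicate number and the inputs have no values of their own.

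Limits of these data are the low tags per peak, with a median of 16.9 in DIFF1 and 24 in DIFF2, lists scaled and called apart, peak widths that differ, and the lack of values outside peaks, so that a site missing from a list is not shown to be absent. Assignment to the nearest start site does not show regulation of that gene.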
